A study of Macaca mulatta with 3 samples.

Results

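The H3K4me3 peaks that lie next to the ends of macaque chromosomes are described here. Of 24248 deposited peaks, 1327 (5.47%) had their centre in the first or last 2 Mb of chromosomes 1 to 9, 11 to 15, 17 or 18, which gives 32 ends on 16 chromosomes. They were chosen by position alone, the furthest tag setting each chromosome's length, and were compared with the 16649 interior peaks of the same 16 chromosomes. A male rhesus macaque, 3389 days old at death, gave the chromatin, from frozen prefrontal cortex (the superior frontal gyrus). The ChIP library was made with an antibody against H3K4me3 (Abcam ab8580), and the input library is fragmented DNA of that tissue that was not precipitated. The study used the mark to locate transcription start sites.

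H3K4me3 is trimethylation of lysine 4 of histone H3. It is written by the SET1 and MLL methyltransferase complexes and is strongest at active promoters, above all at those in CpG islands, the CpG-rich stretches without DNA methylation. The sequence next to primate telomeres is known for many genes and high GC content in some ends, and for duplicated blocks shared between chromosomes. Tags from such duplicates are hard to assign to 1 place.

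The ChIP library held 10023993 tags and the input 9162762, or 3.50 and 3.20 tags per kb on average. Every position below is that of the deposited files, counted from 1, and the build of these coordinates is not given in the sources used here. No gene was therefore assigned, no sequence is shown, and the labelled tissue was not checked against marker genes. With 1 library of each kind from 1 animal, no difference has a replicate check. Intervals are at 95%. Those of shares, densities and pooled ratios are exact and cover counting error only, since tags amplified by PCR are not independent molecules, while medians have order-statistic intervals that treat peaks as independent. Peaks, ends and chromosomes of 1 animal are not replicates, so the values of the interior stand beside those of the ends in place of a test.

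Peaks were denser at the ends. The ends held 20.7 peaks per Mb (19.6 to 21.9) over 64 Mb and the interior 7.18 (7.07 to 7.29) over 2319 Mb, a ratio of 2.89 (2.73 to 3.05). The ends thus made up 2.69% of the span of these chromosomes and carried 7.38% of their peaks. On each of the 16 chromosomes the 2 ends together exceeded the interior: their densities ran from 10.0 to 39.5 per Mb with a median of 18.75, and those of the interiors from 3.99 to 10.8 with a median of 6.84. Of the 32 single ends, 29 exceeded the interior of their chromosome, 24 of them by more than 2 times and 15 by more than 3 times.

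The 5 ends with most peaks lay on 5 chromosomes. The last 2 Mb of chromosome 8 (145794884 to 147794883) had 111 peaks, 9.93 times the density of that chromosome's interior. The first 2 Mb of chromosome 14 had 86 peaks, 4.11 times its interior, and the first 2 Mb of chromosome 15 had 79, 4.63 times its interior. The last 2 Mb of chromosome 9 (131323842 to 133323841) had 66 peaks and those of chromosome 7 (167801329 to 169801328) had 64, at 4.42 and 3.76 times. Chromosome 5, whose interior was the poorest in peaks with 3.99 per Mb, had 44 in its first 2 Mb, 5.52 times the interior, and 14 in its last. Ends of 1 chromosome could therefore differ widely, as on chromosome 15 with 79 and 20 peaks.

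The 5 ends with fewest peaks were the first 2 Mb of chromosomes 2, 12 and 7, with 3, 10 and 11 peaks, the last 2 Mb of chromosome 5 with 14 and the first 2 Mb of chromosome 13 with 19. The starts of chromosomes 2, 12 and 7 were the ends with a density below their interior. They were also the 3 chromosome starts where the first tag lay far from position 1, at 124 kb, 709 kb and 369 kb. The start of their coordinates is thus not covered by these libraries. At the last 2 Mb such a gap could not be seen, because the furthest tag sets the length. At the start of chromosome 7, 80.3% of 1 kb windows held no tag of either library. Counted over windows with a tag, its 11 peaks lay at 27.9 per Mb against 9.12 in the interior, and the 10 peaks at the start of chromosome 12 lay at 10.3 against 6.29. The start of chromosome 2 stayed low, at 1.69 against 6.47 per Mb with tags, and was the only one of the 32 ends below its interior on that measure.

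**Figure D1:**
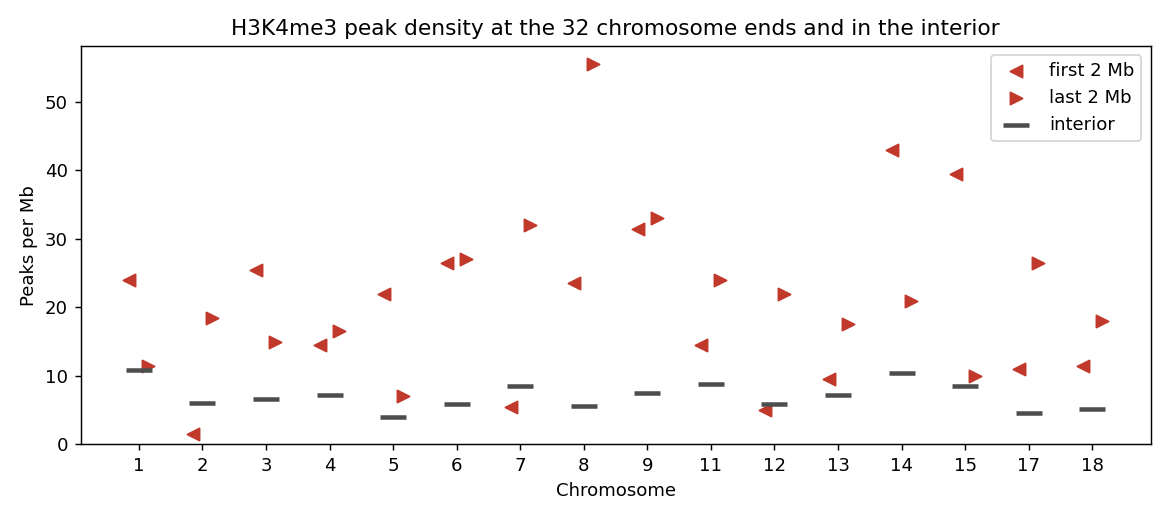
Peaks per Mb in the first 2 Mb (left-pointing triangles) and the last 2 Mb (right-pointing triangles) of each of the 16 chromosomes, with the density of the chromosome's interior as a bar. 29 of the 32 ends lie above their bar, and the last 2 Mb of chromosome 8 stands highest at 55.5 per Mb.

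Density was level within the ends, was lower just beyond the 2 Mb limit and fell further inward. In the 4 successive steps of 0.5 Mb from the end it was 19.4, 21.8, 23.1 and 18.75 peaks per Mb, and the intervals of neighbouring steps overlapped. From 2 to 4 Mb it was 13.6 (12.7 to 14.6), below the 18.75 (16.7 to 21.0) of the step just inside the limit, from 4 to 10 Mb 10.7 (10.3 to 11.2), and beyond 10 Mb 6.65 (6.54 to 6.76). The outermost peak lay within 100 kb of the end at 26 of the 32 ends, at a median of 44.1 kb. Just inside, 131003601 to 131003800 on chromosome 14 held 9 ChIP and 2 input tags, 226256001 to 226257000 on chromosome 1 held 12 and 4, and 131327601 to 131328800 on chromosome 9 held 16 and 8. Just outside, 2000801 to 2001600 on chromosome 3 held 13 and 4, 165652001 to 165652400 on chromosome 4 held 28 and 11, and 187736801 to 187738000 on chromosome 2 held 18 and 5.

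**Figure D2:**
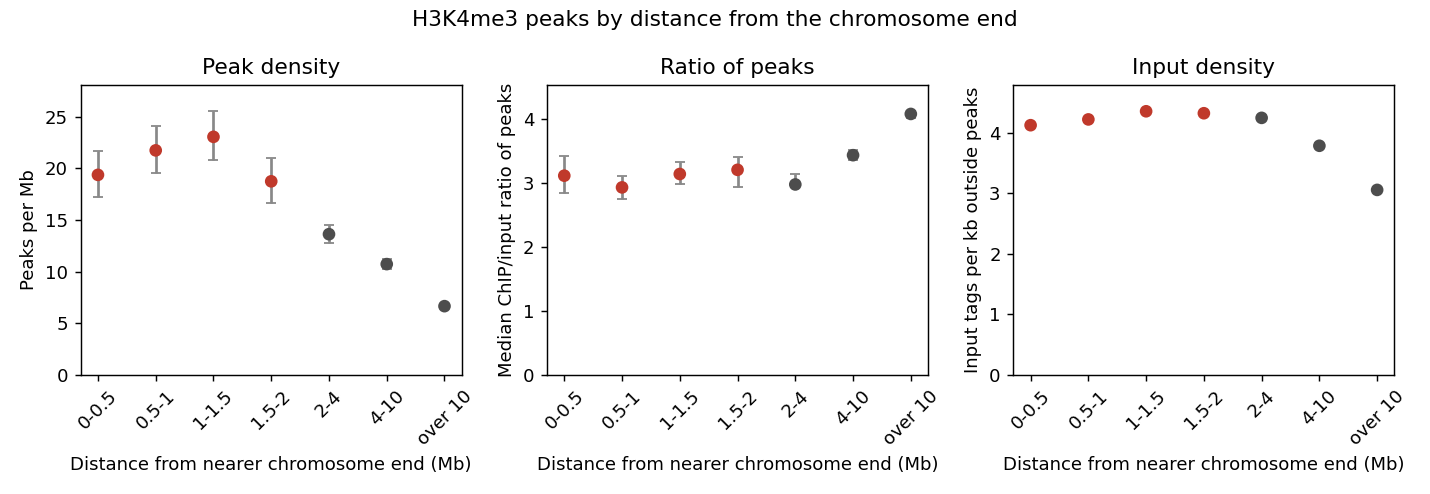
Peaks per Mb, median ChIP to input ratio of peaks and input tags per kb outside peaks, by distance in Mb from the nearer end of the 16 chromosomes (red within 2 Mb, grey beyond), with 95% intervals for density and ratio. Density lies between 18.75 and 23.1 per Mb within 2 Mb, 13.6 at 2 to 4 Mb and 6.65 beyond 10 Mb, while the ratio stays between 2.93 and 3.20 up to 4 Mb and is higher from there, at 3.43 and 4.07.

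Peaks at the ends lay closer together, which a higher density by itself entails. Whether they were closer than their density gives was not tested. Neighbouring peaks of 1 end were a median of 20.4 kb apart (18 to 22.8), against 51.8 kb (50.2 to 53.6) in the interior. A gap under 5 kb separated 23.4% (21.1 to 25.8) of 1295 pairs at the ends and 16.6% (16 to 17.2) of 16633 in the interior. Gaps under 1 kb, which can split 1 marked region into several listed peaks, were not more common at the ends, with 7.64% (6.26 to 9.23) against 8.24% (7.83 to 8.67). A peak at the ends had a median of 5 other peaks within 100 kb, and 1 in the interior had 2. Every one of the 64 windows of 1 Mb at the ends held a peak, with a median of 19, whereas 9.90% of 2313 interior windows held none and the median was 5. Windows with at least 40 peaks were 5 of 64 at the ends and 17 of 2313 in the interior.

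The densest of these windows was the second Mb of chromosome 15 (1000001 to 2000000) with 66 peaks, against a maximum of 72 in the interior. The longest chain of peaks under 5 kb apart lay near the end of chromosome 8 at 147164201 to 147198000, where 9 peaks shared 33.8 kb, with 262 ChIP and 95 input tags in all. Chromosome 14 at 631601 to 654000 held the next longest, 8 peaks in 22.4 kb with 193 and 51 tags. Such chains were few: 815 of the 1327 peaks had no neighbour within 5 kb at their end, and 87 lay in chains of 4 or more.

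Peaks at the ends were less enriched than interior peaks. Enrichment is given as a ratio, ChIP divided by input after scaling for library size (a factor of 1.09), with each tag placed by its 5′ end. Where the input had no tag, 3 were assumed and the ratio is a lower bound, which held for 16 peaks at the ends and 302 in the interior. The median ratio was 3.11 (2.97 to 3.20) at the ends and 3.94 (3.88 to 3.96) in the interior, and 3.76 over all listed peaks. The median was lower at the ends on all 16 chromosomes, from 2.49 to 3.66 against 3.53 to 4.24. The low ratio was shared by the neighbouring interior: peaks at 2 to 4 Mb from an end had a median of 2.97 (2.93 to 3.13), those at 4 to 10 Mb 3.43 (3.35 to 3.50) and those beyond 10 Mb 4.07 (4.01 to 4.11). The ratio depends on both libraries. Per kb of peak, the median was 23.3 ChIP tags at the ends and 24.0 in the interior, and 6.25 and 5.0 input tags. In bulk tissue, fewer cells with the mark at a site and less mark per cell cannot be told apart. Whether either differed at the ends was not tested.

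The first and the last 2 Mb did not differ beyond their intervals, with medians of 3.05 (2.93 to 3.20) and 3.11 (2.97 to 3.29). Of the 32 ends 28 had a lower median than their interior. The 4 with a higher one were the first 2 Mb of chromosomes 2, 7 and 17 and the last 2 Mb of chromosome 15, which held 3, 11, 22 and 20 peaks. At these 4 ends the input outside peaks was 2.39, 0.852, 2.90 and 3.02 tags per kb, where the median over all 32 ends was 4.54. A low mean input did not always come with a higher ratio. The first 2 Mb of chromosome 12 had 1.58 tags per kb and a median ratio of 3.12 against 4.06 in its interior. The first 2 Mb of chromosome 18 had 2.38 and 2.74 against 4.11. These means include windows without a tag of either library. Such windows were 80.3% at the start of chromosome 7, 51.65% at that of chromosome 12 and 45.4% at that of chromosome 18. For these 3 ends the mean therefore does not give the input around the peaks.

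Each peak was also put to an exact binomial test, two-sided, with Benjamini-Hochberg adjustment across the 24248 listed, and was called enriched at an adjusted p under 0.05 if its ratio reached 2. Of the 1327 end peaks 895 were called (67.4%, interval 64.9 to 70.0), against 77.4% of all listed peaks and 78.6% (77.9 to 79.2) of the interior peaks. At 2 to 4 Mb from an end the share was 66.3% (63.0 to 69.4). The test compares 2 libraries, not conditions, and the deposited list had itself picked peaks by ChIP excess in these tags, so the shares are read only side by side. With a ratio of at least 4 the share was 30.4% (28.0 to 33.0) at the ends, 46.4% in the interior and 43.9% over all. Tags moved 75 bases downstream gave 74.9% at the ends against 84.1% over all, and 1 tag per position and strand gave 66.8% against 77.7%. Of the 753 end peaks holding 20 or more ChIP tags 76.6% were called, against 91.0% over all such peaks. A ratio of 2 on both strands was reached by 54.6% (51.8 to 57.3) of end peaks and 67.5% (66.7 to 68.2) of interior peaks.

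Weak peaks were more concentrated at the ends than strong ones. For peaks with an input tag and a ratio under 2, density at the ends was 7.47 times (6.35 to 8.76) that of the interior, from 187 and 907 peaks. For ratios of 2 to 3 it was 3.84 times (3.48 to 4.24), for 3 to 4 it was 2.79 times, for 4 to 6 it was 2.07 times and for 6 to 8 it was 1.86 times. For ratios of 8 and over it was still 1.72 times (1.39 to 2.12), with 96 peaks at the ends. The excess of peaks at the ends was thus present in every class of ratio and smaller the higher the ratio. It was not seen for ratios of 8 and over among peaks with at least 50 ChIP tags and an input tag. Those lay at 0.156 per Mb at the ends (10 peaks) and 0.199 in the interior (462 peaks). The authors' deposited value per peak, a p-value or q-value of the peak itself, had a median of 3.49e-06 at the ends and 1.53e-08 in the interior.

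Width differed little. The median was 1000 bases in both places, with quartiles of 600 and 1400 at the ends and 800 and 1600 in the interior. Density at the ends was 3.08 times the interior for peaks under 600 bases, 3.26 times from 600 to under 1000, and lowest from 1600 to under 2600 bases with 2.19 times (1.90 to 2.51). It was highest at 5 kb and over, with 10.1 times (5.94 to 16.6) from 21 and 75 peaks, a class whose median ratio was only 1.35 at the ends and 1.52 in the interior. Of these 21, 12 lay at the start of chromosome 9 and 4 at the start of chromosome 8, and without chromosome 9 the value was 4.56 times (2.01 to 9.15) from 9 and 72 peaks. In that range of 1600 to under 2600 bases, where interior peaks were well enriched with a median ratio of 4.29, the 221 end peaks had a median of 3.0.

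**Figure D3:**
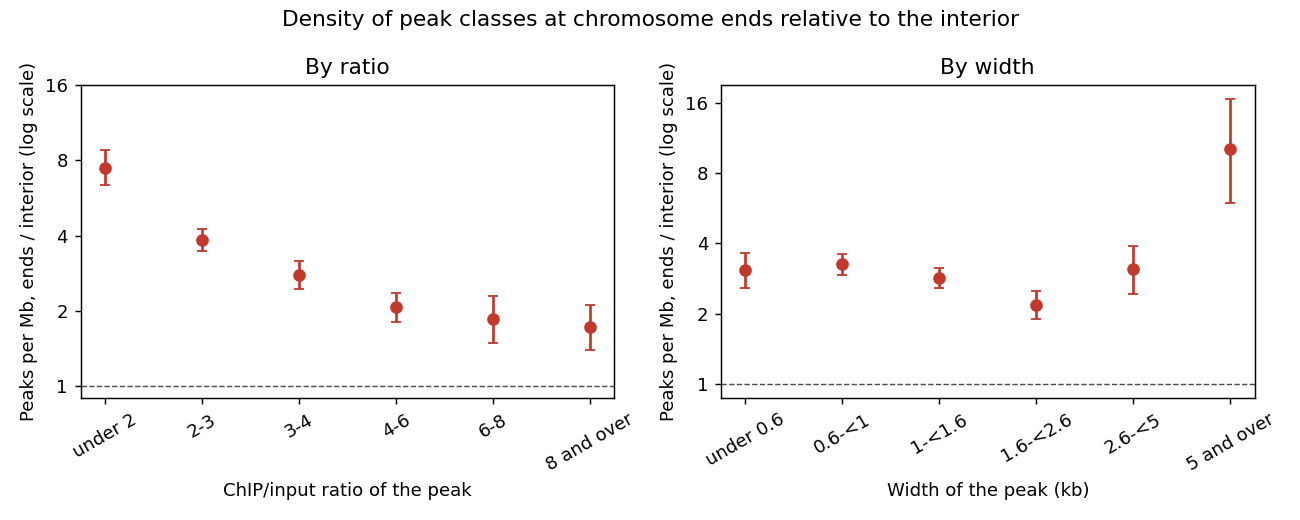
Peaks per Mb at the ends divided by peaks per Mb in the interior (log scale, dashed line at 1), by ChIP to input ratio of the peak and by width in kb, with 95% intervals. By ratio the points fall from 7.47 to 1.72, and by width the class of 5 kb and over is highest at 10.1, which becomes 4.56 without chromosome 9.

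Both libraries were denser around end peaks, and the ChIP summit rose less above its surroundings. Peaks were set apart as high in input where their input exceeded 10 times the genome mean. Around the centres of the 1276 end peaks outside that class, the ChIP library reached 2.69 tags per 100 bases, close to the 2.76 of the 16543 interior peaks. At 2.5 to 5 kb from the centre it fell to 0.755 at the ends but to 0.554 in the interior, so the summit stood at 3.56 and 4.99 times its surroundings and rose above them by 1.93 and 2.21 tags per 100 bases. These surroundings may include tags of neighbouring peaks. Their ChIP to input ratios were 1.21 at the ends and 1.18 in the interior. Windows outside peaks, at 2 to 5 kb from the nearest peak, had 1.04 and 0.993. The input was higher at the ends throughout, with 0.757 against 0.594 tags per 100 bases at the centre and 0.568 against 0.427 in the surroundings. Per peak of the same sets, the ChIP tags beyond those predicted from the input came to a median of 15.4 per kb (14.7 to 16.04) at the ends and 17.7 (17.5 to 17.9) in the interior. Over all peaks, high-input ones included, that excess was 15.9 against 17.7 and was lower at the ends on 15 of 16 chromosomes, the exception being chromosome 9. The neighbouring interior shared the low excess. It was 15.6 at 2 to 4 Mb from an end, 15.8 at 4 to 10 Mb and 18.2 beyond 10 Mb.

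**Figure D4:**
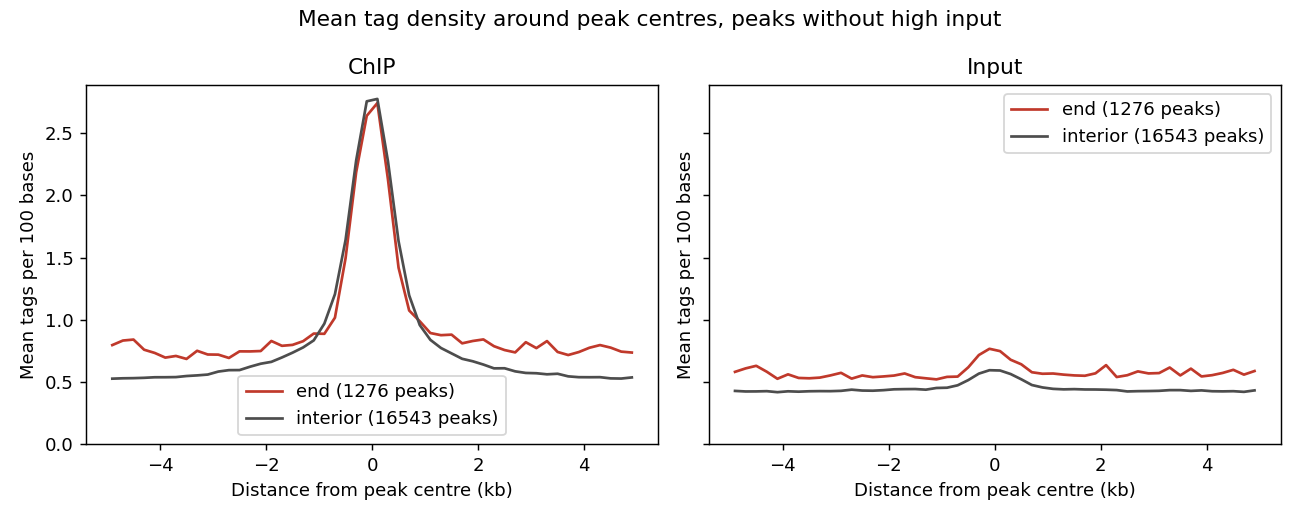
Mean ChIP and input tags per 100 bases in steps of 200 bases within 5 kb of the peak centre, for peaks without high input at the ends (red, 1276 peaks) and in the interior (grey, 16543 peaks). The ChIP summits nearly coincide at 2.69 and 2.76, and the red lines lie higher in the surroundings of both panels.

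Input around the peaks accompanied the ratio in both places. In the 10 kb on each side, outside peaks, input had a median of 5.11 tags per kb (5.0 to 5.22) for end peaks and 3.90 (3.85 to 3.90) for interior peaks. Where it was 3 to 4 tags per kb, the median ratio was 3.75 (3.47 to 4.27) for 182 end peaks and 4.42 (4.31 to 4.57) for 4434 interior peaks without high input. At 4 to 5 it was 3.35 (3.11 to 3.66) and 3.66 (3.56 to 3.66), at 5 to 6 it was 2.97 (2.74 to 3.20) and 3.20 (3.20 to 3.35), and at 6 to 8 it was 2.74 (2.59 to 2.97) and 2.95 (2.89 to 3.0). At each of these levels ends and interior were closer than over all peaks, and from 4 tags per kb upward the intervals touched or overlapped. At 2 to 3 tags per kb they were not closer, with 3.88 (3.31 to 4.84) for 89 end peaks and 4.88 (4.80 to 5.03) for 3570 interior peaks, and the intervals overlapped there too. At the extremes the end median was the higher one within overlapping intervals, with 2.54 (2.13 to 3.11) for 46 end peaks against 2.44 (2.29 to 2.54) at 8 tags per kb and over, and 4.88 (2.74 to 6.40) for 15 against 4.74 (4.50 to 5.03) under 2. At 3 to 4 tags per kb the median ChIP excess per kb of peak was 17.2 at the ends and 19.5 in the interior. At 5 to 6 it was 14.5 in both, and at 8 and over 16.7 and 14.6 with overlapping intervals. Among peaks with like numbers of neighbours the median ratio stayed lower at the ends. With 2 or 3 other peaks within 100 kb the medians were 3.43 (3.09 to 3.66) for 252 end peaks and 4.07 (3.96 to 4.16) for 4846 interior peaks. With none they were 3.07 (2.51 to 4.11) for 37 and 4.17 (4.05 to 4.27) for 2636, with intervals that overlapped. With 1 they were 3.20 (2.93 to 3.88) for 82 and 4.27 (4.15 to 4.35) for 3278. From 4 to under 8 they were 3.11 (2.93 to 3.20) for 508 and 3.66 (3.49 to 3.66) for 3794. With 8 or more they were 3.13 (2.97 to 3.35) for 397 and 3.43 (3.35 to 3.53) for 1989. In that most crowded class ends and interior were closest, and the intervals touched. GC content and mappability could not be measured without a genome of this build, and their part in these values was not tested.

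Outside the high-input class, tag-rich peaks made up a smaller share of all peaks at the ends but were denser there. The smaller share depends in part on leaving out high-input peaks. These were 3.84% of end peaks and 0.637% of interior peaks, with medians of 395 and 205 ChIP tags. Outside the high-input class, 181 end peaks (13.6% of the 1327, or 2.83 per Mb) held at least 50 ChIP tags and an input tag, with a median ratio of 3.35. In the interior there were 2977 (17.9%, or 1.28 per Mb), with a median of 5.16. A ratio of 8 was reached by 10 of the 181 (5.52%) and 462 of the 2977 (15.5%), or 0.156 and 0.199 per Mb.

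These 10 end peaks lay at 9 ends of 8 chromosomes. Their call as enriched follows from their selection. Of all peaks with an input tag and a ratio of 8 and over, 100% were called at the ends and in the interior alike. The steepest, on chromosome 4 at 166624201 to 166625400 (1031 kb from the end), held 51 tags of the ChIP library and 3 of the input, for a ratio of 15.5 (5.03 to 77.8). On chromosome 15 at 110055201 to 110056200, only 63.4 kb from the end and with no other peak within 100 kb, 61 ChIP tags stood against 4, a ratio of 13.9 (5.17 to 52.8). The peak on chromosome 17 at 1813601 to 1815600 held 96 against 7, a ratio of 12.5 (5.86 to 32), and was also alone within 100 kb. Chromosome 11 at 374801 to 376600 had 52 and 4 tags, and chromosome 4 at 553201 to 554400, near the other end of that chromosome, had 75 and 6. The other 5 were those of chromosome 2 at 189150001, chromosome 8 at 147659201 and 147331601, chromosome 7 at 168195001 and chromosome 6 at 177873001, with ratios from 8.10 to 9.60. Input in these 10 peaks was 0.695 to 1.56 times the genome mean. All of their intervals overlapped, so their order was not resolved at this depth.

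Peaks with most ChIP tags were a different set. Outside the high-input class the first spanned 363001 to 368600 of chromosome 9 and held 274 ChIP and 160 input tags, a ratio of 1.57 (1.28 to 1.91), and 71.9% of its ChIP tags carried the codes U1 or U2. These codes stand in the deposited ChIP lines beside U0 and are absent from the input, and their meaning is not stated. Chromosome 13 at 136522601 to 136529600 had 209 and 143 tags, and chromosome 12 at 997401 to 1003200 had 197 and 107. These 3 peaks, and 1 on chromosome 7 at 168965001 to 168968000 with 122 and 73 tags, had ratios under 2, which the rule for a call excludes. The other 6 of the 10 were called and lay on chromosomes 8, 14 and 15. For comparison, 77.4% of all listed peaks were called, and 91.0% of those with at least 20 ChIP tags. Among them were chromosome 15 at 1102401 to 1105600 with 150 and 38 tags, a ratio of 3.61 (2.51 to 5.30), chromosome 14 at 17401 to 20800, 19.1 kb from the end, with 146 and 30, a ratio of 4.45 (2.99 to 6.83), and chromosome 8 at 146690201 to 146694000 with 140 and 26, a ratio of 4.92 (3.22 to 7.80).

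High-input peaks were over-represented at the ends. They were 51 of the 1327 end peaks (3.84%, interval 2.87 to 5.02) and 106 of the interior peaks (0.637%, 0.522 to 0.770). Of the tags in end peaks, these 51 peaks took 52.0% in the ChIP library and 70.7% in the input, against 9.91% and 24.1% for the class in the interior. They occurred at 17 of the 32 ends, but 23 lay at the start of chromosome 9, between 422601 and 868800, with 21839 ChIP and 14695 input tags, and 5 at the start of chromosome 8, between 1 and 144400, with 12457 and 9124. Without chromosome 9 the class was 26 of 1198 end peaks (2.17%, 1.42 to 3.16) against 0.657% in the interior, and its share of tags in those end peaks was 35.4% in the ChIP library and 56.0% in the input. Input defines the high-input class and is also the divisor of the ratio, so its selection favours low ratios and few calls. The median ratio of the 51 was 1.42 (1.37 to 1.51), and 6 of the 51 were called (11.8%), where 77.4% of all listed peaks were. U1 and U2 made up 63.1% of their ChIP tags. The class was also low in the interior. Its 106 peaks there had a median ratio of 1.58, 15 were called (14.2%), and U1 and U2 were 60.5% of ChIP tags. With distinct U0 tags alone the median ratio was 0.593 (0.492 to 0.745) for the 51 and 0.907 (0.845 to 0.961) for the 106.

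The widest end peaks all belonged to this class. Chromosome 8 at 9001 to 27000 measured 18 kb, with a ratio of 1.22 (1.17 to 1.27), followed by 14.4 kb on chromosome 12 at 965201 to 979600 with a ratio of 1.42 and 14.0 kb on chromosome 8 at 27401 to 41400 with 1.24. Chromosome 9 carried the next, 13.2 kb at 786801 to 800000 and 10.4 kb at 433801 to 444200, with ratios of 1.26 and 1.30. The densest input of all end peaks, 129 times the genome mean, was on chromosome 13 at 136929801 to 136933600, where 2288 ChIP tags stood against 1571. The next was the peak that opens chromosome 8 at 1 to 8600, with 4535 and 3239 tags and input at 118 times the mean, and the other 3 were on chromosome 9 at 863401, 844601 and 850601 with 77.1 to 109.6 times. Distinct positions and strands were 81.4% to 90.9% of the ChIP tags in the peaks named in this paragraph, while the input file repeats none, so the files were not filtered alike there.

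The codes bear on the remaining end peaks too. Outside the high-input class U1 and U2 were 27.1% of the ChIP tags in end peaks and 21.6% in interior peaks. With distinct U0 tags alone, the median ratio of these 1276 end peaks was 2.92 (2.84 to 3.03) and that of the interior 3.86 (3.83 to 3.98), and it was lower at the ends on 16 of 16 chromosomes. The share called among all 1327 was then 51.2% (48.4 to 53.9), against 70.6% in the interior and 68.7% over all listed peaks. Counting only peaks called with distinct U0 tags, which was tried after the data were seen, density at the ends was 2.09 times (1.93 to 2.26) that of the interior.

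Between the peaks, both libraries were denser at the ends. In 1 kb windows that overlapped no peak, input was 4.26 tags per kb at the ends and 3.15 in the interior, and ChIP was 4.74 and 3.17. The adjoining interior was also dense. At 2 to 4 Mb from an end input was 4.25 and ChIP 4.55 tags per kb, and at 4 to 10 Mb 3.79 and 3.94. Beyond 10 Mb both were 3.06. Input outside peaks exceeded the interior at 27 of the 32 ends, although 19.1% of end windows held no input tag, against 14.8% in the interior. The ratio outside peaks was 1.018 (1.012 to 1.023) at the ends and 0.920 (0.919 to 0.921) in the interior, and higher at the ends on 16 of 16 chromosomes and at 31 of 32 ends, the start of chromosome 2 being the exception. It was highest at the start of chromosome 15 with 1.13 and at the end of chromosome 7 with 1.1, both rich in peaks. Stretches of the interior that were dense in peaks had like values: in blocks of 100 kb with 7 or more peaks the ratio outside peaks was 1.101 (1.08 to 1.13) at the ends and 1.12 (1.11 to 1.14) in the interior, and with 4 to 6 peaks it was 1.06 (1.04 to 1.07) and 1.03 (1.026 to 1.036). In blocks without a peak it was 0.959 (0.947 to 0.972) and 0.891 (0.890 to 0.892).

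With all tags counted, the ratio was also higher at the ends at most distances from a peak. In windows without high input at 5 to 10 kb from the nearest peak the ratio was 1.03 (1.01 to 1.04) at the ends and 0.961 (0.957 to 0.965) in the interior, and higher at the ends on all 16 chromosomes. At 20 to 50 kb it was 0.993 (0.982 to 1.004) and 0.926 (0.924 to 0.928). Within 1 kb of a peak it was not higher, with 1.12 (1.1 to 1.15) and 1.15 (1.14 to 1.16).

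The difference was smaller once the codes were taken into account. U1 and U2 were 23.4% (23.2 to 23.5) of ChIP tags outside peaks at the ends and 18.2% (18.1 to 18.2) in the interior. With distinct U0 tags alone the ratio outside peaks was 0.947 (0.941 to 0.952) and 0.933, and higher at the ends on 12 of 16 chromosomes. Intervals lay apart upward on 7 chromosomes and downward on 3, of which chromosome 13 was the lowest with 0.856 (0.838 to 0.874) against 0.935. At 5 to 10 kb from a peak the 2 values were then 0.967 (0.953 to 0.982) and 0.972 (0.968 to 0.976). Beyond 10 kb the ends were the higher of the pair at every step, with intervals apart beyond 100 kb, at 0.927 (0.907 to 0.948) against 0.896 (0.895 to 0.898). Within 1 kb of a peak the ends were lower, with 1.04 (1.01 to 1.06) against 1.16 (1.15 to 1.17). The input carries U0 alone, and nothing in the sources used here says how the code was assigned in either file, so neither count is a like-for-like comparison.

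**Figure D5:**
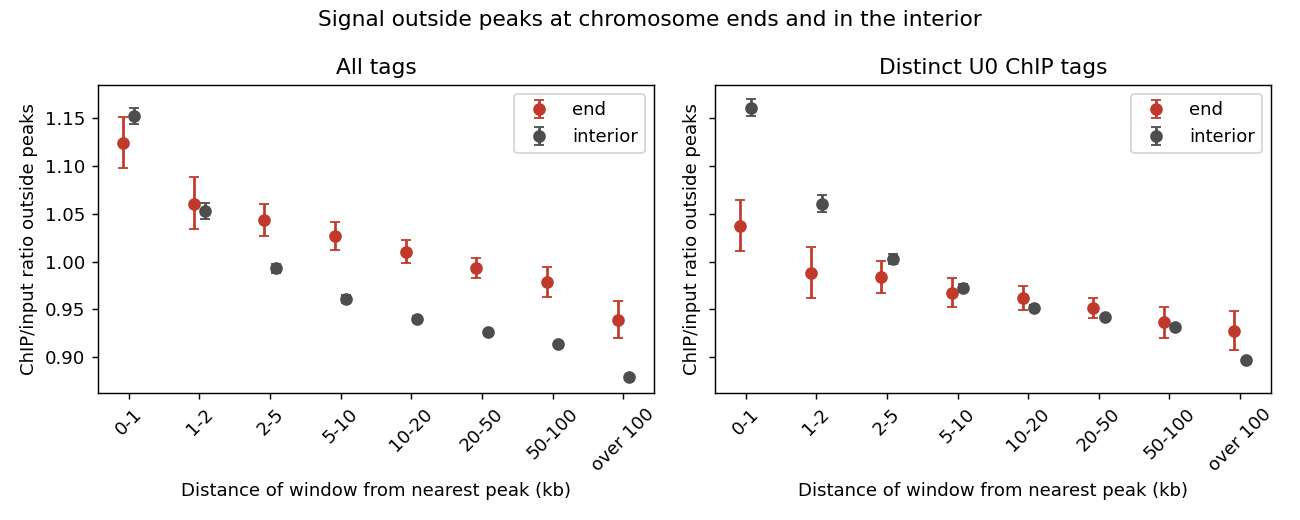
ChIP to input ratio in 1 kb windows outside peaks and without high input, by distance in kb from the nearest peak, at the ends (red) and in the interior (grey), with 95% intervals covering counting error, for all tags and for distinct U0 ChIP tags. At 5 to 10 kb the values are 1.03 and 0.961 with all tags but 0.967 and 0.972 with U0 tags.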

How the data were processed

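The files the authors deposited list the aligned tags of a ChIP and an input library, 1 to a line, and 1 set of peaks. Because the deposited score column is 0 throughout, lines were counted, each at the 5′ end of its tag. The deposited p-value or q-value per peak was at most 0.000987, and whether it was adjusted is not stated. Tags were sequenced as 36 bases, per the labels' protocols. The deposited input tags span 38 bases. The submitters' processing notes name SICER and TopHat without version or role. The sources used here do not say which aligner or build was used. The RNA pool was not analysed here.

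Members and lists were chosen with earlier results of these data known. Peaks named by position were the 5 ends with most and with fewest peaks, the 10 peaks with most ChIP tags outside the high-input class, the 10 of highest ratio among those holding 50 or more ChIP tags and an input tag, the 5 widest, the 5 of densest input and the 3 nearest the limit on each side. Chains of peaks, the densest window, and ends and chromosomes named as exceptions were chosen after their values were seen.

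Windows were 1 kb, counted from the start of each chromosome. The binomial test was tested on simulated counts. Alternatives covered end width, merging, tag filters and excluded peaks or windows. Scripts ran under Python 3.11.15 with pandas 2.3.3, scipy 1.17.1 and numpy 2.4.6, and plots were drawn with matplotlib 3.10.9.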

Additional observations from a re-analysis of the deposited data

How the results depend on the processing

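In 17 of 34 alternatives to the main values the value stayed inside its reported interval. Among the 34, the U0 calls for density and the spacing without high-input peaks were added after the data were seen, as was leaving out chromosomes for the wide and high-input classes (values in the text) and for peaks with a ratio under 2, whose density was 6.31 to 8.31 times the interior. The direction against the interior held in all 9 alternatives for density, 9 for the median ratio, 5 for the share called and 4 for the ratio outside peaks. The density ratio of 2.89 became 2.46 with ends of 4 Mb, 2.48 with only peaks called enriched and 2.09 with only those called on distinct U0 tags, and ran from 2.68 (without chromosome 8) to 3.08 (without chromosome 1) with each chromosome left out in turn. The median ratio at the ends was 2.84 with distinct U0 tags and 2.74 with at least 20 ChIP tags, where the interior had 3.86 and 4.31. The share called was 51.2% with distinct U0 tags, 74.9% with tags shifted by 75 bases, 30.4% at a ratio of 4 and 76.6% with at least 20 ChIP tags. Pairs within 5 kb were 17.1% after merging peaks under 1 kb apart, against 9.09% in the interior. The ratio outside peaks was 0.947 with distinct U0 tags, 1.009 at 2 kb or more from a peak and 1.011 without high-input windows. Input density at the ends over all windows was 1.49 times the interior, 1.35 times outside peaks and 1.32 times without high-input windows. Unless stated, the cause was not tested. Depth limits single peaks most: a typical end peak held 22 ChIP and 6 input tags.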
